A study of Danio rerio with 13 samples.

Results

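*hMYC-2* ALL was set against *hMYC-1* ALL, a pair of molecular classes of acute lymphoblastic leukemia that arose in zebrafish of the same transgenic genotype. The arrays were taken by their sample labels, which name 6 as adult *hMYC-2* ALL and 4 as adult *hMYC-1* ALL, 10 of the 13 arrays of the series. The other 3 arrays, of *hlk* T-ALL, served as a level to read the groups against. They also entered the fit, so their spread is part of the standard errors and p-values of limma given here. Fish of both *hMYC* groups were adult *rag2:hMYC;lck:eGFP* double transgenics, in which the *rag2* promoter, active in immature lymphocytes, drives human MYC and the *lck* promoter drives GFP. The MYC protein is fused to a modified estrogen receptor, and tamoxifen was not used. The *hlk* fish carried a GFP reporter in the *hlk* line, which develops T-ALL without the MYC transgene. The paper does not say which GFP reporter these fish carried. GFP+ cells, dim and bright together, were sorted by flow cytometry from the body without the head, and RNA of 1 fish was hybridized to each array. The study made the classes *hMYC-2* and *hMYC-1* by clustering these same arrays, so every test between them describes the split and is not independent evidence for it. Since the RNA came from sorted pools, fewer cells of a type and less RNA per cell cannot be told apart.

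Immediate early genes are those that cells transcribe within minutes of a stimulus, without new protein synthesis. Many encode transcription factors, among them the FOS and JUN proteins that pair to form AP-1, and others encode phosphatases and RNA-binding proteins that end the response. They answer growth factors, antigen receptors and cAMP, and also the stress of taking tissue apart. MYC is itself such a gene in normal lymphocytes, and as a transgene it drives growth and division of lymphoid precursors.

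A level is a log2 value of a probe set (the set of probes on the array that reads 1 transcript), as the study's RMA processing left it, and a difference is the mean of *hMYC-2* minus the mean of *hMYC-1* on that scale. A probe set is called, or said to rise or fall, where limma's p-value, adjusted by Benjamini-Hochberg over 15502 probe sets, was under 0.05. The controls of the array that have no zebrafish target (tag controls) read up to 5.68, which was taken as background for any level at or under it. Where a whole group was at background, the difference is given as at least the mean of the other group minus 5.68. Where only some arrays of a group were at background the fitted difference is given, and its size rests in part on values there. Between 40.3% and 42.3% of probe sets were above background on each array.

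Some arrays stood apart from the rest of their group. *hMYC-1* replicate 3 read 3.77, 5.70 and 6.25 on 3 control probe sets whose targets the files do not name, against 7.41 to 8.82, 10.13 to 11.29 and 10.62 to 11.92 on the other 9 *hMYC* arrays and at most 3.80 in *hlk*. It also had the widest gap between the 3′ and 5′ *gapdh* controls of any *hMYC* array (2.49, against 1.1 to 1.92 in *hMYC-2* and 1.21 to 1.5 in the other *hMYC-1* arrays), and a wide gap is a sign of degraded RNA. The gap was wider still in *hlk* replicate 1, at 4.69, against 1.09 and 1.28 in the other *hlk* arrays. *trac*, the T cell receptor alpha constant gene, read 8.43 in *hMYC-1* replicate 3, against 4.25 to 6.39 in *hMYC-2*, 4.04, 4.92 and 5.57 in *hMYC-1* replicates 1, 2 and 4, and a mean of 9.05 in *hlk*. A *Bacillus subtilis* dap control, RNA added before labeling, read 5.78 to 8.57 in *hMYC-2*, 7.80, 6.96, 3.58 and 3.08 in *hMYC-1* replicates 1 to 4, and 5.59 to 7.04 in *hlk*. Across probe sets, pairs of arrays correlated (Pearson) at 0.983 to 0.992 in *hMYC-2*, 0.977 to 0.989 in *hMYC-1* and 0.966 to 0.988 between the groups. The counts of calls and the main list medians are given with and without *hMYC-1* replicate 3, or replicates 3 and 4, as are single genes that these arrays moved most, and the part of these array differences in the results was otherwise not tested. Of 175 measured marker genes of 13 lists for other cell and tissue types, lymphoid lineages left out, 149 were at background on all 10 *hMYC* arrays and none was called, and the median differences of these lists lay between -0.16 and 0.00.

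*hMYC-2* ALL differed from *hMYC-1* ALL mainly by a small set of genes that rose strongly. Of the 15502 probe sets, 83 were called (0.535%), 65 of them higher (0.419%) and 18 lower (0.116%) in *hMYC-2*. The median difference was 1.84 for those that rose, -0.63 for those that fell and -0.04 over all probe sets. A change of at least 1 was shown by 53 of the 65 and by 2 of the 18, and 15 rose by at least 3. The called probe sets named 50 genes that rose and 12 that fell, and 16 probe sets had no single symbol. At an unadjusted p under 0.05 the balance was the other way, with 707 probe sets higher (4.56%) and 1041 lower (6.72%). In the same way, every *hMYC-2* array lay above every *hMYC-1* array for 214 probe sets (1.38%) and below for 356 (2.3%), 3.68% in all. Without *hMYC-1* replicate 3 the called probe sets numbered 40, all among the 83, and 92.5% of them were higher in *hMYC-2*. They numbered 49 without *hMYC-2* replicate 2 and 51 without *hMYC-2* replicate 3.

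**Figure D1:**
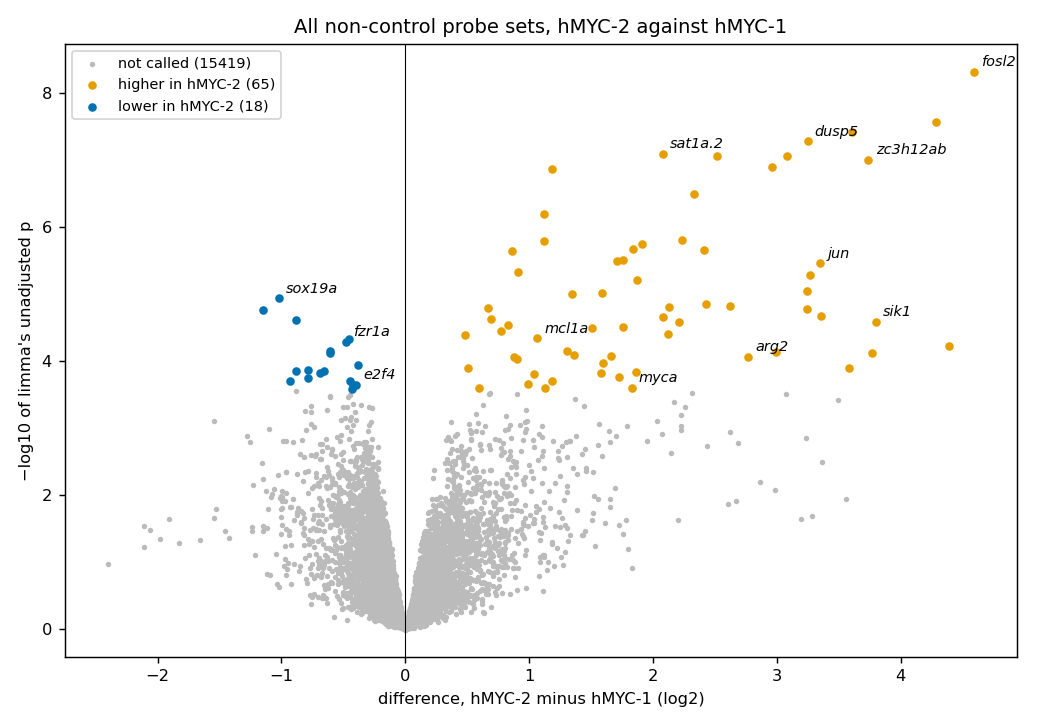
Each point is 1 of 15502 probe sets, with the difference of *hMYC-2* minus *hMYC-1* (log2) on the horizontal axis and the unadjusted p of limma on a −log10 scale on the vertical axis. The 65 called probe sets that rose reach differences of over 4, while the 18 that fell lie close to 0 with only 2 at or past -1.

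AP-1 genes were among the strongest rises. *fosl2*, which encodes the FOS family protein FRA2, had the largest fitted difference of the named genes. Its level in *hMYC-2* was 8.66 at the lowest, 9.70 at the median and 10.44 at the highest, against 4.84, 4.67, 4.64 and 5.95 in *hMYC-1* replicates 1 to 4 and a mean of 6.17 in *hlk*. The gap between the groups was wide, and only *hMYC-1* replicate 4 was above background. The means were 9.62 ± 0.59 in *hMYC-2* (S.D., n = 6) and 5.03 ± 0.62 in *hMYC-1* (S.D., n = 4), a difference of 4.59 (standard error 0.32, adjusted p = 7.51e-05, limma). All 3 probe sets of *fosl2* were called. On the second every *hMYC-1* array was at background and the rise was at least 3.1, while on the third the mean of *hMYC-2* was itself at background, at 5.63, so that no size is given.

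*jun*, the partner that forms AP-1 with FOS proteins, read 10.66, 11.15 and 11.47 in *hMYC-2* (lowest, median and highest), against 8.09, 7.39, 6.47 and 9.09 in *hMYC-1*. It was above background on every array, and the groups did not overlap. The difference was 3.35 (standard error 0.43, adjusted p = 0.00258, limma), and its second probe set gave 3.35 too (adjusted p = 0.00938, limma). *jdp2b*, whose mammalian counterpart is a Jun-binding repressor of AP-1, read 9.49, 10.46 and 11.46 in *hMYC-2*, against 8.01, 6.31, 6.45 and 8.77 in *hMYC-1*, a difference of 3.00 (standard error 0.52, adjusted p = 0.0213, limma). In *hlk* it averaged 10.94, as high as in *hMYC-2*, so *hMYC-1* was the lowest of the 3 leukemias. *junbb*, a JUNB gene, read 9.58, 10.10 and 10.71 in *hMYC-2*, against 8.52, 7.30, 7.12 and 9.03 in *hMYC-1* (difference 2.12, standard error 0.34, adjusted p = 0.0138, limma). Its paralog *junba* read 9.71, 10.15 and 10.59 in *hMYC-2* and 8.22, 5.28, 5.90 and 8.91 in *hMYC-1*, a larger difference of 3.08 that did not pass (adjusted p = 0.055, limma), with a wide spread in *hMYC-1*. *fosab*, an ortholog of FOS, did not overlap between the groups either but did not pass (difference 1.65, adjusted p = 0.131, limma).

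Of 20 AP-1 genes listed, 11 were measured, 4 rose and none fell, with a median difference of 1.65 beside -0.04 over all probe sets. The rises were 36.4% of the measured genes, beside 0.419% of all probe sets. This list and those below were chosen with earlier results of these data known. Their shares therefore describe the lists and are not independent support for a rise or fall. In 6 of the 11 every *hMYC-2* array lay above every *hMYC-1* array, as in 1.38% of all probe sets, and in none below. Left out singly, *hMYC-1* replicate 3 ended the calls of *jdp2b* and *junbb* (adjusted p = 0.102 and 0.0514, limma), *hMYC-1* replicate 2 ended the same calls, and *hMYC-2* replicate 2 or 3 ended that of *jdp2b*. Without *hMYC-1* replicate 3 the list kept 2 rises and a median of 1.18. Without both *hMYC-1* replicates 3 and 4 it had 3 rises and a median of 1.46. The calls of *fosl2* and *jun* were kept in each of the 24 alternatives tried.

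The phosphatase gene *dusp5*, the kinase genes *sik1* and *sgk1* and the nuclear receptor gene *nr4a2b* rose as well. *dusp5*, a phosphatase that switches off ERK, read 7.97, 8.48 and 8.97 in *hMYC-2* (lowest, median and highest), against 5.27, 4.86, 4.98 and 5.71 in *hMYC-1*, of which only replicate 4 was above background. The arrays of each group lay close together, with standard deviations of 0.46 in *hMYC-2* and 0.38 in *hMYC-1*, and the difference was 3.25 (standard error 0.28, adjusted p = 0.000191, limma). *sik1*, a salt-inducible kinase that restrains the coactivators of CREB, read 9.74, 10.36 and 10.69 in *hMYC-2*, against 6.67, 5.13, 5.22 and 8.81 in *hMYC-1*. *hMYC-1* replicate 4 came within 1 unit of the lowest *hMYC-2* array, while replicates 2 and 3 were at background. The difference was 3.80 (standard error 0.59, adjusted p = 0.0101, limma), and the call was kept narrowly without *hMYC-1* replicate 3 (adjusted p = 0.0499, limma). In *hlk* the mean of *sik1* was 9.94, near *hMYC-2*, so *hMYC-1* was the lowest of the 3 leukemias, while *dusp5* averaged 5.50 there. *sgk1*, a kinase induced by serum and glucocorticoid, read 7.84, 8.75 and 9.26 in *hMYC-2*, against 6.28, 4.55, 4.36 and 6.56 in *hMYC-1*, a difference of 3.24 (standard error 0.45, adjusted p = 0.00566, limma). Its mean in *hlk* was 4.76, at background, as were *hMYC-1* replicates 2 and 3.

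*nr4a2b*, an orphan nuclear receptor of the NURR1 type, read 7.39, 8.19 and 9.21 in *hMYC-2*, against 5.53, 2.87, 3.81 and 6.63 in *hMYC-1*. Only replicate 4 of *hMYC-1* was above background, and the spread of that group was wide (S.D. 1.69, against 0.67 in *hMYC-2*). The difference of 3.58 (standard error 0.66, adjusted p = 0.0312, limma) was no longer called without any 1 of *hMYC-2* replicates 1, 2, 3 and 5 or *hMYC-1* replicates 2 and 3 (adjusted p up to 0.145, limma). Its relative *nr4a1* read 12.77, 13.19 and 13.48 in *hMYC-2*, against 12.08, 8.98, 6.09 and 12.15 in *hMYC-1*, and the difference of 3.37 did not pass (adjusted p = 0.169, limma). *hMYC-1* replicates 1 and 4 lay just under *hMYC-2* for this gene, and replicates 2 and 3 far below, and without replicate 3 the difference was 2.12.

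Regulators of inflammatory transcripts were among the genes that rose. *zc3h12ab*, whose mammalian counterpart is an RNase that degrades inflammatory mRNAs, read 7.75, 8.51 and 9.29 in *hMYC-2* (lowest, median and highest), against 5.29, 4.20, 4.30 and 5.35 in *hMYC-1*. Every *hMYC-1* array was at background, so the rise was at least 2.85 (adjusted p = 0.000191, limma). *cebpb*, a bZIP transcription factor of inflammation and stress, read 9.06, 9.28 and 10.53 in *hMYC-2*, against 7.23, 7.44, 6.50 and 7.28 in *hMYC-1* (difference 2.42, standard error 0.29, adjusted p = 0.00195, limma). *klf6a*, an early zinc finger factor, read 7.97, 8.36 and 8.62 in *hMYC-2* and 7.16, 6.92, 6.66 and 7.24 in *hMYC-1* (difference 1.35, standard error 0.19, adjusted p = 0.0057, limma). For all 3 genes the groups did not overlap, and none lost its call when any single array was left out. Means in *hlk* were 9.02 for *cebpb* and 8.15 for *klf6a*, near *hMYC-2*, and 5.69 for *zc3h12ab*.

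*phlda2*, which encodes a small pleckstrin homology domain protein, read 6.91, 9.32 and 10.44 in *hMYC-2*, against 6.09, 4.63, 5.03 and 5.59 in *hMYC-1*. Its spread was the other way round from most of these genes, with a wide range in *hMYC-2* and only *hMYC-1* replicate 1 above background. The difference was 3.77 (standard error 0.65, adjusted p = 0.0214, limma), and leaving out *hMYC-2* replicate 2, 3 or 6 or *hMYC-1* replicate 2, 3 or 4 ended the call (adjusted p up to 0.102, limma). *si:ch211-195b13.1* read 10.12, 10.61 and 11.06 in *hMYC-2*, against 7.44, 5.02, 3.82 and 8.59 in *hMYC-1*. The 6 *hMYC-2* arrays lay within 1 unit of each other, while *hMYC-1* spread from background to well above it. The difference of 4.39 (standard error 0.74, adjusted p = 0.0187, limma) lost its call without *hMYC-2* replicate 2 or 3 or *hMYC-1* replicate 2 (adjusted p up to 0.0747, limma).

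**Figure D2:**
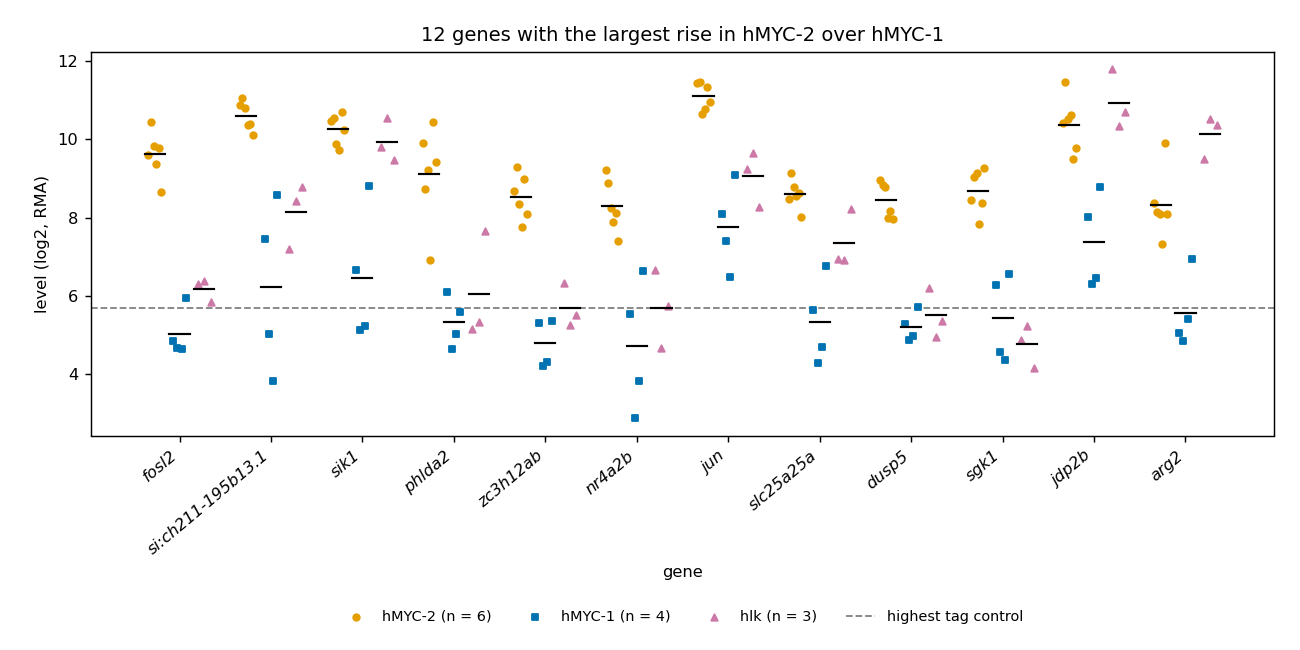
Level (log2) on every array for the 12 genes with the largest rise, with *hMYC-2* in circles, *hMYC-1* in squares, *hlk* in triangles, a bar at each group mean and a dashed line at 5.68, the highest control without a zebrafish target. *hMYC-2* lies above *hMYC-1* for each gene without overlap, replicate 4 is the highest *hMYC-1* array for most of them, and *hlk* lies between the groups, as for *jun*, above both, as for *arg2*, or below both, as for *sgk1*.

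Of 63 immediate early and stress response genes listed, 46 were measured, 6 rose and none fell, with a median difference of 1.03 beside -0.04 over all probe sets. The 6 were *dusp5*, *cebpb*, *klf6a*, *sik1*, *nr4a2b* and *mcl1a*. They made up 13% of the measured genes, beside 0.419% of all probe sets called higher. At an unadjusted p under 0.05, 25 were higher (54.3%, beside 4.56% of all probe sets) and 1 lower (2.17%, beside 6.72%). In 16 every *hMYC-2* array lay above every *hMYC-1* array, as in 1.38% of all probe sets, and in none below. Among those that did not pass, *egr2a* had a difference of 3.49 (adjusted p = 0.0633, limma), the antiproliferative gene *btg2* 2.03 (adjusted p = 0.1, limma) and the phosphatase gene *dusp1* 1.56 (adjusted p = 0.137, limma), all without overlap. Without *hMYC-1* replicate 3 the difference of *dusp1* was 1.0. *egr1*, a zinc finger gene often used as a mark of cell activation, did overlap. It read 10.66 to 11.77 in *hMYC-2*, and 10.69, 7.07, 6.39 and 10.21 in *hMYC-1* (difference 2.60, adjusted p = 0.309, limma). The list's mean level relative to *hlk* was 0.69 to 1.18 in *hMYC-2*, and 0.10, -0.80, -0.76 and 0.26 in *hMYC-1* replicates 1 to 4. Thus *hMYC-1* replicates 1 and 4 lay near *hlk* and replicates 2 and 3 below it, and all 6 *hMYC-2* arrays lay above. Without *hMYC-1* replicate 3, 4 of the list rose and the median was 0.91. Without *hMYC-1* replicates 3 and 4 these were 4 and 0.96.

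Of 43 genes listed as responding to cAMP through CREB, several of which are also on the lists above, 18 were measured, 3 rose (*fosl2*, *sik1* and *nr4a2b*) and none fell, with a median of 0.86. The 3, each already counted on a list above, were 16.7% of those measured, beside 0.419% of all probe sets. Of the heat shock genes 35 of 44 were measured and none was called. At an unadjusted p under 0.05, 7 were higher (20%) and none lower, beside 4.56% and 6.72% of all probe sets. The chaperone gene *hsp70.3* read 6.98 to 9.33 in *hMYC-2* and 6.56, 6.83, 5.28 and 6.71 in *hMYC-1*, a difference of 2.26 that did not pass (adjusted p = 0.0723, limma). No gene of 9 measured on a list of NF-kB and TNF genes was called, and its median was -0.19. At an unadjusted p under 0.05, 2 were higher and 3 lower (22.2% and 33.3%, beside 4.56% and 6.72% of all probe sets). The member with the largest difference, the NF-kB inhibitor gene *nfkbiab*, read 10.54 to 11.61 in *hMYC-2* and 10.46, 9.36, 8.99 and 10.19 in *hMYC-1*, without overlap (difference 1.37, adjusted p = 0.0608, limma).

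Several of the named genes that rose encode mitochondrial carriers or metabolic enzymes. *slc25a25a*, a carrier of ATP-magnesium and phosphate of the mitochondrial inner membrane, read 8.02, 8.60 and 9.14 in *hMYC-2* (lowest, median and highest), against 5.64, 4.27, 4.68 and 6.75 in *hMYC-1* (difference 3.27, standard error 0.43, adjusted p = 0.00354, limma). Of the *hMYC-1* arrays only replicate 4 was above background. *slc25a33*, a mitochondrial carrier of pyrimidine nucleotides, read 9.79, 10.39 and 11.45 in *hMYC-2*, against 8.15, 8.36, 7.98 and 8.60 in *hMYC-1* (difference 2.23, standard error 0.26, adjusted p = 0.00182, limma). *higd1a*, a hypoxia-inducible protein of the same membrane, rose by 1.84 on 1 probe set and by 2.33 on another (adjusted p = 0.00195 and 0.000452, limma). *arg2*, the mitochondrial arginase, read 7.33, 8.12 and 9.92 in *hMYC-2*, against 5.05, 4.83, 5.41 and 6.93 in *hMYC-1*. The difference was 2.77 (standard error 0.49, adjusted p = 0.023, limma), and the call ended without *hMYC-2* replicate 2 or 3 or *hMYC-1* replicate 1, 2 or 3 (adjusted p up to 0.102, limma). *hlk*, at a mean of 10.13, was higher for *arg2* than either group.

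*ucp2*, an uncoupling protein, and *ldha*, lactate dehydrogenase A, passed by a small margin. *ucp2* read 10.00, 11.35 and 11.63 in *hMYC-2*, against 9.56, 9.03, 9.36 and 9.84 in *hMYC-1* (difference 1.72, adjusted p = 0.0374, limma). *ldha* read 9.43, 10.03 and 10.41 in *hMYC-2*, against 9.10, 8.33, 8.92 and 9.24 in *hMYC-1* (difference 1.13, adjusted p = 0.048, limma). Neither gene overlapped between the groups, and each lost its call in 10 of the 13 fits that left out a single array. The list of hypoxia and glycolysis genes had 53 of 76 measured, 2 that rose (*higd1a* and *ldha*), none that fell and a median of 0.05. The 2 were 3.77% of those measured, beside 0.419% of all probe sets. On all 10 *hMYC* arrays 22 of the 53 were at background, where a difference cannot be read. At an unadjusted p under 0.05, 8 were higher (15.1%, beside 4.56% of all probe sets) and 4 lower (7.55%, beside 6.72%). In 5 every *hMYC-2* array lay above every *hMYC-1* array, as in 1.38% of all probe sets, and in none below. Of 66 measured genes of oxidative phosphorylation none was called, beside 0.535% of all probe sets. Unadjusted, 5 of them were higher (7.58%, beside 4.56%) and 2 lower (3.03%, beside 6.72%).

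Enzymes and carriers of amino acids and polyamines also rose. *sat1a.2*, a spermidine/spermine acetyltransferase that starts polyamine breakdown, read 10.85, 11.67 and 11.81 in *hMYC-2*, against 9.10, 9.47, 9.28 and 9.83 in *hMYC-1*. The groups lay a full unit apart (difference 2.08, standard error 0.19, adjusted p = 0.000191, limma), and *hlk* was at the level of *hMYC-2* with a mean of 11.46. A near-identical paralog, *sat1a.1*, may share probes with it, so the value may hold both. *slc3a2b*, the heavy chain of amino acid exchangers, read 10.09, 10.64 and 11.07 in *hMYC-2*, against 8.84, 8.24, 9.11 and 9.43 in *hMYC-1* (difference 1.71, standard error 0.22, adjusted p = 0.00246, limma). *chac1*, a glutathione-degrading enzyme that ATF4 induces, read 10.96, 11.42 and 11.80 in *hMYC-2*, against 10.27, 8.37, 8.89 and 9.84 in *hMYC-1* (difference 2.08, standard error 0.32, adjusted p = 0.00956, limma). Its call ended without *hMYC-1* replicate 3 (adjusted p = 0.0514, limma), and its other probe set differed by 0.0025, so it rests on 1 probe set. The calls of *sat1a.2* and *slc3a2b* were kept whichever array was left out. The list of the integrated stress response, the pathway through ATF4, had 32 of 49 genes measured, 3 that rose (*cebpb*, *slc3a2b* and *chac1*), none that fell and a median of 0.12. The 3 were 9.38% of those measured, beside 0.419% of all probe sets. On the list of endoplasmic reticulum stress and secretion 50 of 62 were measured, *sec23b* of the COPII vesicle coat rose by 1.04 (adjusted p = 0.0338, limma) and none fell. The 1 call was 2% of the list, beside 0.419% of all probe sets called higher. At an unadjusted p under 0.05, 12 were higher (24%, beside 4.56% of all probe sets) and 1 lower. *xbp1*, a transcription factor of the unfolded protein response and of plasma cells, read 9.91, 10.40 and 11.21 in *hMYC-2*, and 9.01, 7.21, 7.30 and 9.59 in *hMYC-1*, without overlap (difference 2.17, adjusted p = 0.0653, limma).

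A survival gene and genes of RNA handling were among the others that rose. *mcl1a*, a BCL2 family member that blocks apoptosis, was nearly level within *hMYC-1*, at 10.35, 10.83 and 11.16 in *hMYC-2* (lowest, median and highest) and 9.77, 9.70, 9.75 and 9.76 in *hMYC-1* (difference 1.06, adjusted p = 0.0151, limma). Its call ended without *hMYC-1* replicate 2 or 3 (adjusted p up to 0.0608, limma). In *hlk* the mean of *mcl1a* was 10.79, near *hMYC-2*. *ddx5*, an RNA helicase, read 9.97, 10.52 and 11.10 in *hMYC-2*, against 8.73, 8.35, 9.03 and 9.15 in *hMYC-1* (difference 1.76, standard error 0.22, adjusted p = 0.00246, limma), and *hlk* averaged 10.61, near *hMYC-2*. *ccnl1b*, a cyclin of the splicing apparatus, rose by 1.12 (standard error 0.13, adjusted p = 0.00182, limma). *pik3r1*, the regulatory subunit of phosphoinositide 3-kinase, rose on 1 probe set, which read 8.52, 9.30 and 9.79 in *hMYC-2* and 8.08, 6.59, 6.56 and 7.27 in *hMYC-1* (difference 2.13, adjusted p = 0.00785, limma). Its more highly expressed probe set gave 1.44 and did not pass (adjusted p = 0.0721, limma), so the gene rests on part of its probes. The list of 33 measured phosphoinositide 3-kinase and insulin signaling genes had no call on the probe sets shown. Over all probe sets only 0.535% were called, so this does not show equal levels. At an unadjusted p under 0.05, 6 were higher (18.2%, beside 4.56% of all probe sets) and 1 lower (3.03%, beside 6.72%). On all 10 *hMYC* arrays 10 of the 33 were at background.

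The zebrafish genome has its own MYC orthologs, *myca* and *mycb*, beside the human transgene. *myca* read 6.58, 6.75 and 7.18 in *hMYC-2*, against 5.06, 3.51, 5.29 and 6.11 in *hMYC-1*, of which 1 was above background. The difference of 1.83 passed by a small margin (standard error 0.36, adjusted p = 0.048, limma) and lost its call in 11 of the 13 fits that left out a single array. Both groups were far below *hlk*, by 3.74 in *hMYC-2* and 5.57 in *hMYC-1*. *mycb* read 5.28 to 6.72 in *hMYC-2* and 4.67, 3.93, 5.21 and 5.88 in *hMYC-1*, near background in both groups, and did not pass (difference 1.12, adjusted p = 0.511, limma). MYC is known to drive genes of ribosome production. Of 68 measured genes of the MYC family and ribosome biogenesis only *myca* rose and only *utp3* fell (median -0.05). These calls were 2.94% of the list, beside 0.535% of all probe sets, and *myca* is on it as a MYC family gene. Of 70 cytosolic ribosomal proteins none was called in either direction, beside 0.535% of all probe sets (median -0.03).

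The genes that fell did so by far less than others rose. *sox19a*, a SOXB1 transcription factor known from the early embryo and nervous system, fell most of the named genes. It read 6.98, 7.28 and 7.50 in *hMYC-2* (lowest, median and highest), against 7.96, 8.74, 8.18 and 8.35 in *hMYC-1*, and averaged 5.14 in *hlk*, at background. Every *hMYC-2* array lay below every *hMYC-1* array, by a mean of 1.02 (standard error 0.15, adjusted p = 0.00636, limma), and no single array ended the call. *usp3*, a deubiquitinase of histones, read 5.25, 5.72 and 5.84 in *hMYC-2*, at the edge of background, against 6.33, 6.16, 6.72 and 6.54 in *hMYC-1* (difference -0.79, standard error 0.15, adjusted p = 0.0385, limma). *utp3*, which takes part in making the small ribosomal subunit, read 7.01, 7.21 and 7.46 in *hMYC-2*, against 7.98, 7.66, 8.24 and 8.24 in *hMYC-1* (difference -0.78, standard error 0.14, adjusted p = 0.0325, limma). The calls of *usp3* and *utp3* ended in 9 and 7 of the 13 fits that left out a single array.

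Several of the other genes that fell encode proteins of splicing or of the cell cycle. *tra2b*, a splicing activator, read 7.32, 7.43 and 7.53 in *hMYC-2*, against 7.67, 8.12, 8.20 and 8.17 in *hMYC-1* (difference -0.61, adjusted p = 0.0213, limma). *srsf6b*, an SR splicing factor, read 9.72, 10.00 and 10.07 in *hMYC-2*, against 10.25, 10.32, 10.51 and 10.47 in *hMYC-1* (difference -0.45, adjusted p = 0.0413, limma). On its called probe set *gemin2*, of the complex that assembles spliceosomal particles, read 5.95, 6.03 and 6.36 in *hMYC-2*, against 6.45, 6.59, 6.55 and 6.53 in *hMYC-1* (difference -0.43, adjusted p = 0.0491, limma). In these genes the *hMYC-2* arrays lay close to each other and just below the lowest *hMYC-1* array. *fzr1a*, an activator of the anaphase-promoting complex, read 7.32, 7.43 and 7.49 in *hMYC-2*, against 8.06, 7.78, 7.82 and 7.95 in *hMYC-1* (difference -0.48, standard error 0.08, adjusted p = 0.0163, limma). *e2f4*, an E2F factor that represses cell cycle genes in resting cells, read 9.48, 9.59 and 9.68 in *hMYC-2*, against 10.10, 9.93, 9.96 and 9.92 in *hMYC-1* (difference -0.40, adjusted p = 0.0451, limma), and its other probe set differed by -0.08. The calls of *tra2b*, *srsf6b*, *gemin2* and *e2f4* ended in 6, 10, 12 and 11 of the 13 fits without a single array, and that of *fzr1a* only without *hMYC-1* replicate 4 (adjusted p = 0.0557, limma).

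*ubtfl*, which encodes a protein like the ribosomal RNA transcription factor UBF, read 7.01, 7.24 and 7.29 in *hMYC-2*, against 7.67, 7.55, 7.74 and 7.62 in *hMYC-1* (difference -0.45, adjusted p = 0.0151, limma). Without *hMYC-1* replicate 3 its adjusted p was 0.0813 (limma). *hs6st2*, a heparan sulfate sulfotransferase, read 6.84, 7.06 and 7.28 in *hMYC-2*, against 7.47 to 7.91 in *hMYC-1* (difference -0.61, adjusted p = 0.0214, limma). The 12 genes that fell also held *smarca2*, a chromatin remodeling ATPase, and *fbxw2*, an F-box protein. *smarca2* differed by -0.42 on its called probe set (adjusted p = 0.0454, limma) and by 0.72 on its other one, and *fbxw2* by -0.38 (adjusted p = 0.0288, limma) and by 0.01 on another, so these calls rest on 1 probe set each. The calls of *hs6st2*, *smarca2* and *fbxw2* ended in 4, 11 and 7 of the 13 fits without a single array.

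**Figure D3:**
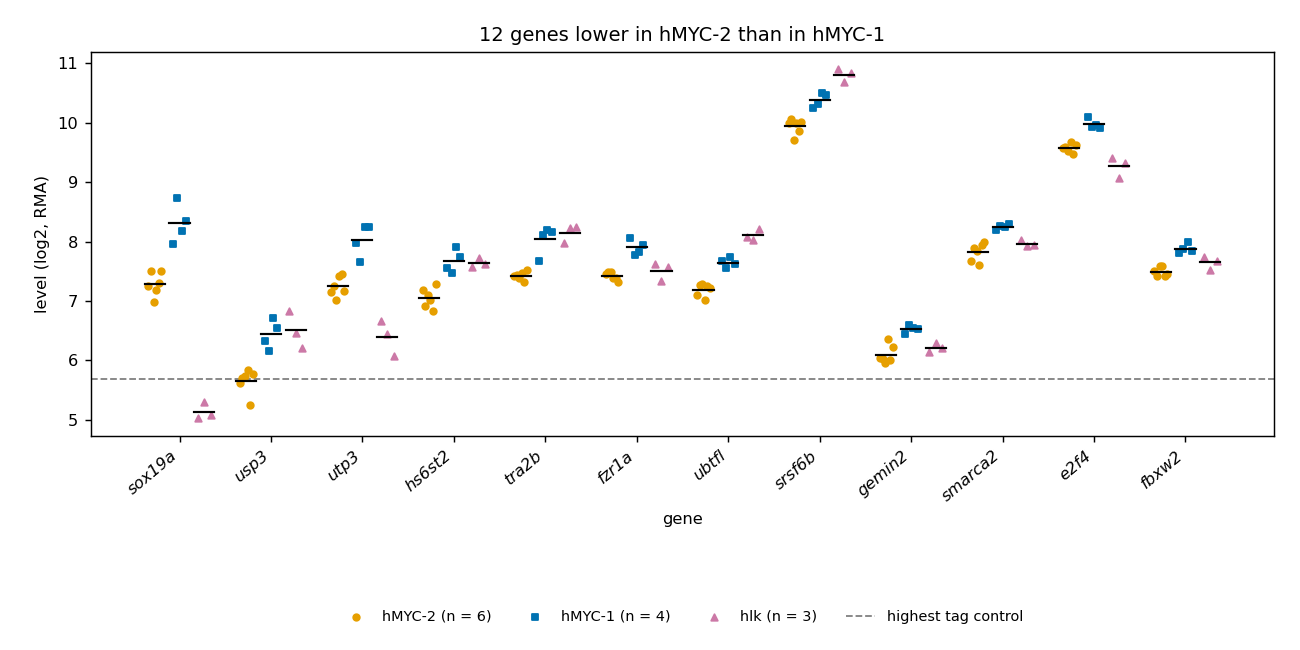
Level (log2) on every array for the genes that fell, with *hMYC-2* in circles, *hMYC-1* in squares, *hlk* in triangles, a bar at each group mean and a dashed line at 5.68. The distances are small beside those of the genes that rose, the largest being 1.02 for *sox19a*, and most *hMYC-2* arrays lie in a narrow band below *hMYC-1*.

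Mitotic genes leaned lower in *hMYC-2* as a group, with 1 call among them. Of 100 mitosis genes listed, 69 were measured, none rose and only *fzr1a* fell, with a median difference of -0.66 beside -0.04 over all probe sets. Of the 69, 66 had a difference below 0. At an unadjusted p under 0.05, 40 were lower (58%, beside 6.72% of all probe sets) and none higher. In 14 every *hMYC-2* array lay below every *hMYC-1* array, as 2.3% of all probe sets did. The 1 call was 1.45% of the list, beside 0.116% of all probe sets called lower. *kif11*, a kinesin of the spindle, read 6.62, 6.99 and 7.50 in *hMYC-2* (lowest, median and highest), and 8.32, 7.75, 8.51 and 8.39 in *hMYC-1* (difference -1.26, adjusted p = 0.131, limma). *cdc20*, an activator of the anaphase-promoting complex, read 6.08 to 6.45 in *hMYC-2* and 7.25, 6.54, 7.15 and 7.0 in *hMYC-1* (difference -0.76, adjusted p = 0.106, limma). The mitotic kinase *plk1* read 7.09 to 7.95 in *hMYC-2* and 8.87, 8.09, 8.60 and 8.33 in *hMYC-1* (difference -1.02, adjusted p = 0.203, limma). In each of them *hMYC-1* replicate 2 was the lowest of its group, closest to *hMYC-2*. The spread of *hlk*, which enters these p-values, was wider, with an S.D. of 0.996 for *kif11*, 0.46 for *cdc20* and 0.92 for *plk1*. For the same genes it was 0.33, 0.16 and 0.35 in *hMYC-2*, and 0.34, 0.31 and 0.34 in *hMYC-1*. Of the 24 alternatives tried, 4 called *kif11*, 5 called *cdc20* and none called *plk1*.

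The list's mean level relative to *hlk* was -0.66 to 0.23 in *hMYC-2*, and 0.55, -0.05, 0.53 and 0.44 in *hMYC-1* replicates 1 to 4, within the range of -0.66 to 0.66 that the *hlk* arrays spanned. Without *hMYC-1* replicate 3 the list kept its 1 fall, 25 genes were lower at an unadjusted p under 0.05 and the median was -0.56. Without *hMYC-1* replicates 3 and 4 none fell, 12 were lower unadjusted and the median was -0.52. The median of the DNA replication genes was near 0. Of 81 listed 66 were measured, none rose and only *e2f4* fell, with a median of -0.03. The 1 call was 1.52% of the list, beside 0.116% of all probe sets called lower. At an unadjusted p under 0.05 only 1 was higher and 1 lower (1.52% each, beside 4.56% and 6.72% of all probe sets). Their mean level relative to *hlk* was -0.91 to 0.22 in *hMYC-2* and -0.39, -0.49, -0.21 and -0.22 in *hMYC-1*, so the groups overlapped.

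**Figure D4:**
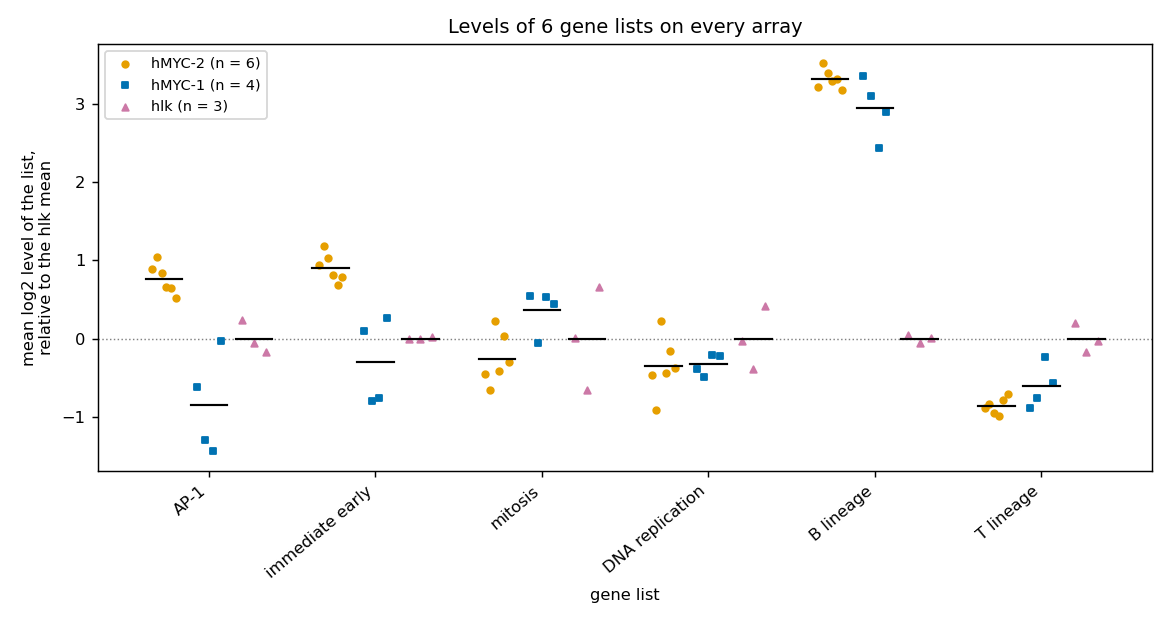
Mean level of the genes of each list on every array, relative to the mean of *hlk* (log2), with *hMYC-2* in circles, *hMYC-1* in squares and *hlk* in triangles. The *hMYC-2* arrays lie above all 4 *hMYC-1* arrays for the AP-1 and immediate early lists, mostly below them for mitosis, and overlap them for DNA replication and both lineages.

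**Figure D5:**
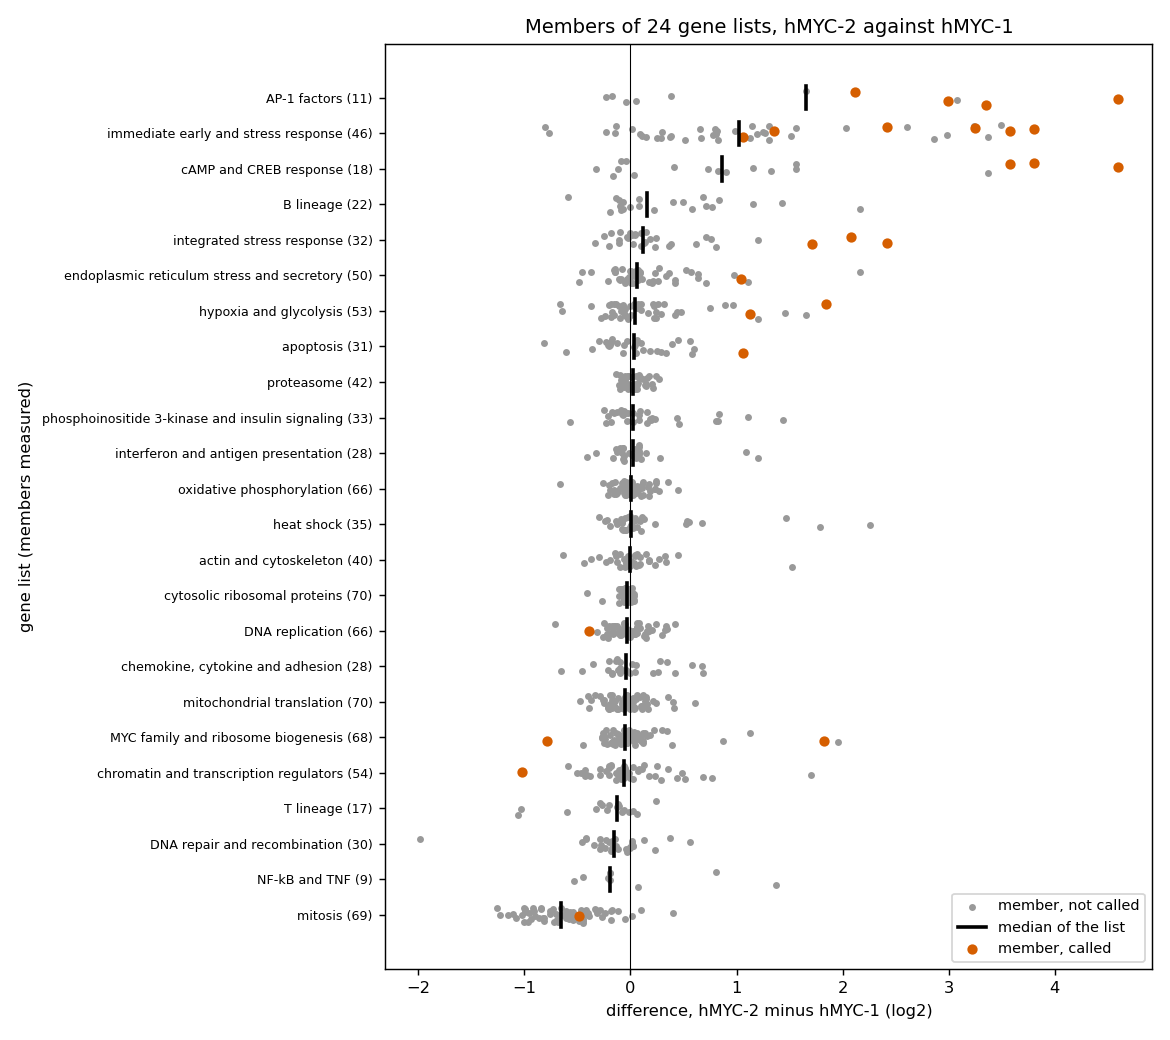
Differences of *hMYC-2* minus *hMYC-1* (log2) for each measured gene of the main lists, called genes marked, with a bar at each list's median. The medians were 1.65 for AP-1, 1.03 for immediate early genes and -0.66 for mitosis, and the genes of most other lists are centered near 0.

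No lineage gene was called between the groups. Of 22 measured B lineage genes and 17 measured T lineage genes none was called, with medians of 0.15 and -0.13. Over all probe sets only 0.535% were called, so lists this short without a call do not show equal levels. On all 10 *hMYC* arrays 2 of the B lineage genes and 10 of the T lineage genes were at background, where a difference cannot be read. The B lineage median was 0.04 without *hMYC-1* replicate 3 and -0.14 without replicates 3 and 4. Over all arrays, 5 B lineage genes were higher (22.7%, beside 4.56% of all probe sets) and 1 lower (4.55%, beside 6.72%) at an unadjusted p under 0.05. The labels name both groups as ALL without a lineage. The B lineage list read 3.18 to 3.51 above *hlk* in *hMYC-2* and 3.35, 3.09, 2.43 and 2.89 above it in *hMYC-1*, and the T lineage list -0.98 to -0.71 in *hMYC-2* and -0.88, -0.76, -0.23 and -0.56 in *hMYC-1*. *igl1c1*, an immunoglobulin light chain constant gene, read 11.81, 12.01 and 12.24 in *hMYC-2* and 12.16, 12.36, 11.93 and 11.92 in *hMYC-1*, against a mean of 5.12 in *hlk*, at background. By these defining genes all 10 *hMYC* arrays held B lineage RNA, and *hMYC-1* replicate 3 held the least of it by the list and the most *trac*.

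Some B lineage genes, chosen here after their values were seen, split the *hMYC-1* arrays. *pax5*, the transcription factor that commits cells to the B lineage, read 8.87, 9.05 and 9.15 in *hMYC-2* (lowest, median and highest), and 8.94, 8.91, 7.51 and 7.90 in *hMYC-1*. Replicates 1 and 2 lay in the range of *hMYC-2*, and replicates 3 and 4 about 1 unit below. The difference of 0.71 (adjusted p = 0.299, limma) became 0.44 without replicate 3 and 0.10 without replicates 3 and 4. *syk* encodes a kinase that relays the B cell receptor signal. It read 6.12, 6.58 and 6.87 in *hMYC-2* and 6.20, 5.87, 4.27 and 4.02 in *hMYC-1*, with replicates 3 and 4 at background. Its difference was 1.43 over all arrays (adjusted p = 0.151, limma), 1.16 without replicate 3 and 0.49 without replicates 3 and 4. *blnk*, the adaptor of the same pathway, read 8.31, 8.69 and 9.24 in *hMYC-2* and 9.65, 7.76, 6.33 and 7.94 in *hMYC-1*, where the values lay on both sides of *hMYC-2*. The phospholipase gene *plcg2* read 8.48 to 9.42 in *hMYC-2* and 9.53, 9.83, 7.23 and 7.20 in *hMYC-1*, so that its difference was 0.50 over all arrays and -0.74 without replicates 3 and 4. Others did not show this split. *btk*, a kinase of the pathway, read 8.16 to 8.52 in *hMYC-2* and 8.80, 8.51, 8.29 and 8.18 in *hMYC-1*, and *xbp1* was lowest in replicates 2 and 3. In Ward clustering of the 10 arrays the last join separated the 6 *hMYC-2* from the 4 *hMYC-1* arrays. The study formed the groups by Ward clustering that included these arrays, so this join repeats that split and is not evidence for it. Within *hMYC-1*, replicates 1 and 2 joined apart from 3 and 4, both on the 1000 most variable probe sets and on all of them. Replicates 3 and 4 were also the arrays low on the dap control, at 3.58 and 3.08, against 7.80 and 6.96 in replicates 1 and 2. Whether that array difference bears on the parting of these replicates was not tested.

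*cxcr4a*, a receptor of the chemokine CXCL12, read 12.24, 12.35 and 12.47 in *hMYC-2* and 12.06, 12.15, 10.98 and 11.91 in *hMYC-1*. The groups did not overlap, but 3 of the *hMYC-1* arrays lay close under *hMYC-2* and limma's adjusted p was 0.378 for a difference of 0.58, which was 0.32 without replicate 3. *rag1*, the recombinase gene of lymphoid precursors, was lower in *hMYC-2* by 1.98 without passing (adjusted p = 0.432, limma). It read 4.64, 5.04 and 6.25 in *hMYC-2*, mostly at background, and 6.22, 6.91, 7.79 and 8.07 in *hMYC-1*. All 4 *hMYC-1* arrays made it above background, and only 1 lay under the highest *hMYC-2* array (p = 0.019, exact two-sided permutation test, where the smallest possible p is 0.00952 and no adjustment was made for the number of genes). Its partner *rag2*, whose promoter drives the transgene, read 5.21 to 8.09 in *hMYC-2* and 7.93, 7.78, 7.08 and 7.86 in *hMYC-1* (difference -0.42, adjusted p = 0.851, limma; p = 0.619, exact permutation test). *runx3*, a T and NK lineage regulator also active in other lymphocytes, read 7.29, 8.41 and 8.97 in *hMYC-2* and 8.92, 8.74, 10.32 and 9.63 in *hMYC-1* (difference -1.06, adjusted p = 0.252, limma).

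The low values of *hMYC-1* were not spread evenly over its 4 arrays. Over the 65 probe sets that rose, the lowest *hMYC-1* array was replicate 3 in 27, replicate 2 in 26, replicate 1 in 8 and replicate 4 in 4, and the highest was replicate 4 in 40 and replicate 1 in 13. The median S.D. of these probe sets was 0.378 in *hMYC-2* and 0.395 in *hMYC-1*, more than that of all probe sets (0.152 in *hMYC-2* and 0.157 in *hMYC-1*). Set beside *hlk*, the mean of *hlk* lay between the groups for 50 of the 65, above both for 8 and below both for 7. Against *hlk*, with limma's test, 34 of the 65 were higher and 3 lower in *hMYC-2* (over all probe sets 24.7% were called in that comparison), and 2 were higher and 28 lower in *hMYC-1* (18.8%). For the 18 that fell, *hlk* lay above both groups for 4, between them for 8 and below both for 6. Over all 24 pathway lists, 945 genes were measured, of which 16 rose and 4 fell, and 41 of the called genes were on no list. The comparisons with *hlk* share their arrays with each other and with the comparison of the groups, so these counts place the levels and do not add to the calls.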

How the data were processed

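Affymetrix Zebrafish Genome Arrays measured GFP+ cells of 13 fish, 1 fish per array by the paper's count of 10 *hMYC* and 3 *hlk* fish. The labels gave the groups. The authors deposited log2 values, made with RMA (background correction, quantile normalization and summary of probes) over all arrays, so a change shared by most genes cannot be seen. Control probe sets were left out. Symbols came from the platform annotation, and genes are named only from probe sets with 1 symbol. For a gene with more than 1 probe set, the most highly expressed over the 13 arrays is shown. *ighm*, *itk*, *lck* and *igic1s1* were not analysed here, since no probe set names any of them alone.

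The comparison used limma 3.58.1 in R 4.3.3, fitted to all 13 arrays at once with 3 group means, with Benjamini-Hochberg adjustment over 15502 probe sets at 0.05. The shrinkage t of the study was written from its published formulas as an alternative. Single genes were also tested by exact permutation, written with NumPy 2.4.6. Ward clustering used SciPy 1.17.1, and tables were made with pandas 2.3.3. The fit was tested on simulated data. Each called gene could be named, with values on every array for the 12 largest rises and falls, and with up to 6 members per list and the genes the study names. Of these, part is printed. The members and lists were chosen with earlier results of these data known. Alternatives were the shrinkage t, trended variances, array weights, the 10 arrays alone, a filter on low values, further quantile normalization, scaling on housekeeping genes, a replicate block, a minimum of 1, leaving out each array, and dropping arrays that stood apart. The paper's count of fish equals the number of arrays, so arrays were taken as separate fish. The number of arrays limits the precision.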

Additional observations from a re-analysis of the deposited data

Results flagged for a closer look

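For most of the genes described above, but not *sec23b*, *hsp70.3* or *nfkbiab*, each group was examined for an array far from the others. Of 144 sets of arrays of 1 gene and group, 6 held one, where chance gives about 1 in 20. *fosl2* read 5.95 in *hMYC-1* replicate 4, above the other 3 arrays of its group but far below *hMYC-2*. *tra2b* read 7.67 in *hMYC-1* replicate 1, the array of its group nearest to *hMYC-2*. *usp3* read 5.25 in *hMYC-2* replicate 5, the lowest of its group and within background. *ucp2* read 10.00 in *hMYC-2* replicate 4, low for its group but above every *hMYC-1* array. *ccnl1b* read 10.93 in *hMYC-2* replicate 5, the highest of its group. *trac* read 6.39 in the same array, the only *hMYC-2* array with this T cell receptor gene above background.

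The array also holds control probe sets that no comparison used. On 3 of them, whose targets the files do not name, the lowest of the *hMYC* arrays other than *hMYC-1* replicate 3 read 7.41, 10.13 and 10.62, against highest values of 3.17, 3.12 and 3.80 in *hlk*. *hMYC-1* replicate 3 lay between these levels. On a further control probe set the order was the other way, with 7.53 to 8.90 in the other 9 *hMYC* arrays, 9.64 in *hMYC-1* replicate 3 and 10.49 to 11.77 in *hlk*.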

How the results depend on the processing

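No called probe set changed sign under any alternative. Of the named genes that were not called, *trac* turned to 0.23, *ets1* to 0.067 and *plcg2* to -0.74 without *hMYC-1* replicates 3 and 4, and *cd81a*, at -0.005, turned to 0.0237 with array weights and 0.0075 with the replicate block. With single arrays left out *cd81a* ran from -0.055 to 0.0417, *btk* from -0.163 to 0.0433 and *igl1c1* from -0.143 to 0.00333. Of the 83 called probe sets, 65 were also called by the shrinkage t, 73 with trended variances, 75 with the 10 *hMYC* arrays alone and 77 after a further quantile normalization. With the 10 *hMYC* arrays alone, so without the spread of *hlk*, 110 probe sets were called, 72 higher and 38 lower. The count moved to 153 with array weights, 55 with scaling on housekeeping genes and 55 with a minimum of 1, and ran from 40 to 99 when single arrays were left out (40 without *hMYC-1* replicate 3, 49 and 51 without *hMYC-2* replicates 2 and 3). Chosen after seeing the data, it was 48 without *hMYC-1* replicate 3 and *hlk* replicate 1, and 47 without *hMYC-1* replicates 3 and 4. For the percentage of calls that were higher, a 95% Wilson interval over the 83 probe sets ran from 68.3 to 85.8. That interval treats the probe sets as independent, so it does not measure the spread among fish. The percentage itself was 78.3. It moved to 65.4 with array weights, 65.5 with the 10 arrays alone, 87.3 with scaling on housekeeping genes, which shifted the median of all probe sets by -0.08, 96.4 with a minimum of 1 and 95.7 without *hMYC-1* replicates 3 and 4, and ran from 70.7 to 94.6 with single arrays left out. Members of the pathway lists called numbered 20, against 36 with array weights, 12 without *hMYC-1* replicate 3 and *hlk* replicate 1, 11 without *hMYC-1* replicates 3 and 4, and 10 to 26 with single arrays left out. The median difference of the AP-1 list, 1.65, was 3.00 with a filter on low values, 2.12 with the probe set of smallest p and 1.18 without *hMYC-1* replicate 3 and *hlk* replicate 1 (1.18 to 2.0 with single arrays left out). That of the cAMP and CREB list, 0.86, was 1.36 with the filter (0.71 to 0.99 with single arrays left out). The medians ran from 0.83 to 1.14 for immediate early genes and from -0.79 to -0.55 for mitosis when single arrays were left out. The filter leaves fewer genes in a list, and otherwise the cause was not tested.

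The deviations of same-numbered *hMYC-2* and *hMYC-1* arrays from their group means correlated at -0.32, 0.17, -0.16 and -0.05. The labels do not say that the numbers pair the arrays, and whether they do was not tested. With a block for replicate number, 25 probe sets were called, 22 of them among the 83 and 88% higher, and 5 members of the pathway lists. Over 72 named genes, 1409 refits left the call and sign as they were, 275 ended a call and 31 gained one, and 12 turned the sign of a difference that was not called. The 5.68 of the tag controls bounds what the arrays can show of weakly expressed genes.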

Other observations

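Several lists not described above held no call on the probe sets shown. None of 70 measured genes of mitochondrial translation, 42 of the proteasome, 28 of interferon and antigen presentation, 28 of chemokines, cytokines and adhesion, 40 of the actin cytoskeleton or 30 of DNA repair and recombination was called. Over all probe sets only 0.535% were called, so lists of these sizes without a call do not show equal levels. Of the chemokine, cytokine and adhesion genes 4 were higher (14.3%, beside 4.56% of all probe sets) and 1 lower (3.57%, beside 6.72%) at an unadjusted p under 0.05. On all 10 *hMYC* arrays 11 of these 28 were at background. Of 30 measured genes of DNA repair 4 were lower (13.3%, beside 6.72% of all probe sets) and none higher in *hMYC-2* at an unadjusted p under 0.05. Of 54 measured chromatin and transcription regulators 1 was called, *sox19a*, which fell. The 1 call was 1.85% of the list, beside 0.116% of all probe sets called lower. Unadjusted, 3 were higher and 6 lower (5.56% and 11.1%, beside 4.56% and 6.72% of all probe sets). *kdm2aa*, a histone demethylase, read 7.28 to 7.71 in *hMYC-2* and 7.75, 8.15, 8.06 and 7.97 in *hMYC-1*, without overlap (difference -0.51, adjusted p = 0.0721, limma).

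*mych*, a further MYC family gene of zebrafish, read 9.65 to 10.83 in *hMYC-2* and 9.01, 6.55, 8.24 and 9.84 in *hMYC-1*, with an overlap of 1 array (difference 1.95, adjusted p = 0.13, limma). *hspa5*, the main chaperone of the endoplasmic reticulum, and *syvn1*, a ubiquitin ligase of its quality control, did not overlap between the groups. *hspa5* read 9.30 to 10.22 in *hMYC-2* and 8.59, 8.76, 8.23 and 9.03 in *hMYC-1* (difference 1.1, adjusted p = 0.107, limma). *syvn1* read 8.79 to 9.50 in *hMYC-2* and 8.67, 8.42, 7.52 and 7.96 in *hMYC-1* (difference 0.98, adjusted p = 0.0775, limma). The T lineage regulator *gata3* was at background on every *hMYC* array, with 5.12 in *hMYC-1* replicate 3 as the highest value.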
